A study of Rattus norvegicus with 11 samples.

Results

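The 9 genes described here encode proteins that start, restrain or undo blood clotting at cell surfaces. They are *F3*, *Tfpi*, *Thbd*, *Procr*, *Plat*, *Plau*, *Plaur*, *Vwf* and *Thbs1*, taken by gene symbol from the 24481 genes with read counts and the 24205 genes with FPKM (read fragments scaled to transcript length and library depth) in the rat ileum. All 9 passed the filter on low counts in every comparison, with 30 to 2958 reads per library. Polyadenylated RNA of ileal tissue was sequenced in 3 control, 4 SAP and 4 JZL184 libraries. In the SAP group, severe acute pancreatitis (SAP) was induced in SD rats of 6 to 8 weeks, male by the methods, by infusing 3% sodium taurocholate into the pancreatic duct, and vehicle was given intraperitoneally. The JZL184 group had the same pancreatitis and received 10 mg/kg of JZL184, an inhibitor of monoacylglycerol lipase (MAGL, the main enzyme that degrades the endocannabinoid 2-AG). Control rats received vehicle alone, and all rats were killed 24 h after the injection. The sample labels name a control plasmid for the control rats and oil for the SAP rats where the methods describe vehicle. The methods place the assignment of rats to groups 24 h after surgery and describe the injections after that assignment. They describe no operation for the control rats.

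Clotting starts when tissue factor, the product of *F3*, meets factor VII of the plasma, and tissue factor pathway inhibitor (*Tfpi*) blocks that step. Thrombin then makes fibrin, but on endothelium it is bound by thrombomodulin (*Thbd*), and with the endothelial protein C receptor (*Procr*) it activates the anticoagulant protein C. Fibrin is dissolved by plasmin, which tissue-type (*Plat*) and urokinase-type (*Plau*) plasminogen activators release from plasminogen, and *Plaur* is the cell surface receptor of urokinase. Von Willebrand factor (*Vwf*) tethers platelets to the injured vessel wall, and thrombospondin 1 (*Thbs1*) is an adhesive glycoprotein of platelet granules and of the matrix of injured tissue.

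The deposited files place *Plat* on chromosome 16, *Plau* on 15, *Plaur* on 1, *F3* on 2, *Vwf* on 4 and *Thbd*, *Thbs1*, *Procr* and *Tfpi* on 3 of the mRatBN7.2 build. RefSeq promoters of the GRCr8 build, 250 bases before to 50 bases after the start site, matched 5 of the 9 genes by symbol (*Plau*, *Plaur*, *Procr*, *Tfpi* with 2 start sites, and *Thbs1*). Of these, 3 are printed 5′ to 3′, that of *Thbs1* because its mRNA passed the test below, and those of *Plaur* and *Procr* because they hold an AP-1 site, the sequence bound by Fos and Jun proteins. Capitals mark matches on either strand to AP-1 (TGANTCA), the GC box (GGGCGG), the CCAAT box (CCAAT), the TATA box (TATAAA) and the TEAD site (GGAATG), none of which overlap here. The promoters are, on the plus strand, chr3:125510000-125510299 for *Thbs1*, chr1:89181113-89181412 for *Plaur* and chr3:164714477-164714776 for *Procr*.
Thbs1: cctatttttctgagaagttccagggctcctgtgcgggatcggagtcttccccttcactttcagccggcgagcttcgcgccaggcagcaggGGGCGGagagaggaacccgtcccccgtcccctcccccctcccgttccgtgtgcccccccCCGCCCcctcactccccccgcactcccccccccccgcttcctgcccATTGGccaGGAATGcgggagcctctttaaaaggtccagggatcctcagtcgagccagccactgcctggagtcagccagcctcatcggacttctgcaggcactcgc
Plaur: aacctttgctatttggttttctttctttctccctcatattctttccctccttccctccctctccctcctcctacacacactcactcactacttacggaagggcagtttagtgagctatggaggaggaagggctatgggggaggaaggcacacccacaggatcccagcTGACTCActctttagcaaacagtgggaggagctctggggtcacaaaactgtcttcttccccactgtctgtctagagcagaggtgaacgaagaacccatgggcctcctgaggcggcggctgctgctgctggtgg
Procr: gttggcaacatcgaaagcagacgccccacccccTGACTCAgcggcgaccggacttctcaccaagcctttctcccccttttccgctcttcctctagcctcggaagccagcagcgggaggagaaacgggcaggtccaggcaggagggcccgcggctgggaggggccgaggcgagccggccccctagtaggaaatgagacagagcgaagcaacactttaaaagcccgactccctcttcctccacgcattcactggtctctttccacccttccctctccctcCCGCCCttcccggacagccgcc
The AP-1 letters TGACTCA lie at position -83 from the start site in *Plaur* and at -217 in *Procr*, and 7.33% of all 33469 promoters hold an AP-1 match. The *Thbs1* promoter has 2 GC boxes, a CCAAT box at -55 and a TEAD site at -47. Matches were present in 33.1% of all promoters for the GC box, 37.5% for the CCAAT box, 14.2% for the TEAD site and 14.2% for the TATA box, which is in none of the 3 printed sequences. The *Plau* promoter holds 3 GC boxes.

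Total reads on genes ranged from 26341299 to 33847135 per library. The counts of control libraries 1 and 2 were alike almost to counting noise (chi-square per gene 2.81, against 77.5 to 563 for other pairs within a group) and were counted as 1 sample, which left n = 2 in the control group. SAP libraries formed 2 pairs, with a chi-square per gene of 85.5 between libraries 1 and 2 and 99.1 between 3 and 4, against 337 to 563 across the pairs. SAP library 2 had 20 reads on 3 Y-linked genes, where the other libraries had 1222 to 4665, against the stated male sex. JZL184 library 3 had a summed FPKM of 553 for 6 enterocyte markers, where the other JZL184 libraries had 23139 to 27518. The label names intestinal epithelial cells, but smooth muscle markers such as *Des* (132 to 730 FPKM) and endothelial markers such as *Pecam1* (8.00 to 18.6 FPKM) were present in every library. Groups were compared in pairs with edgeR's quasi-likelihood test, with Benjamini-Hochberg adjustment over all genes tested, and a gene was called if its adjusted p was under 0.05 and it differed more than 2-fold in either direction. The labels do not say that the libraries come from separate rats, and the p-values measure the spread between libraries.

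**Figure D1:**
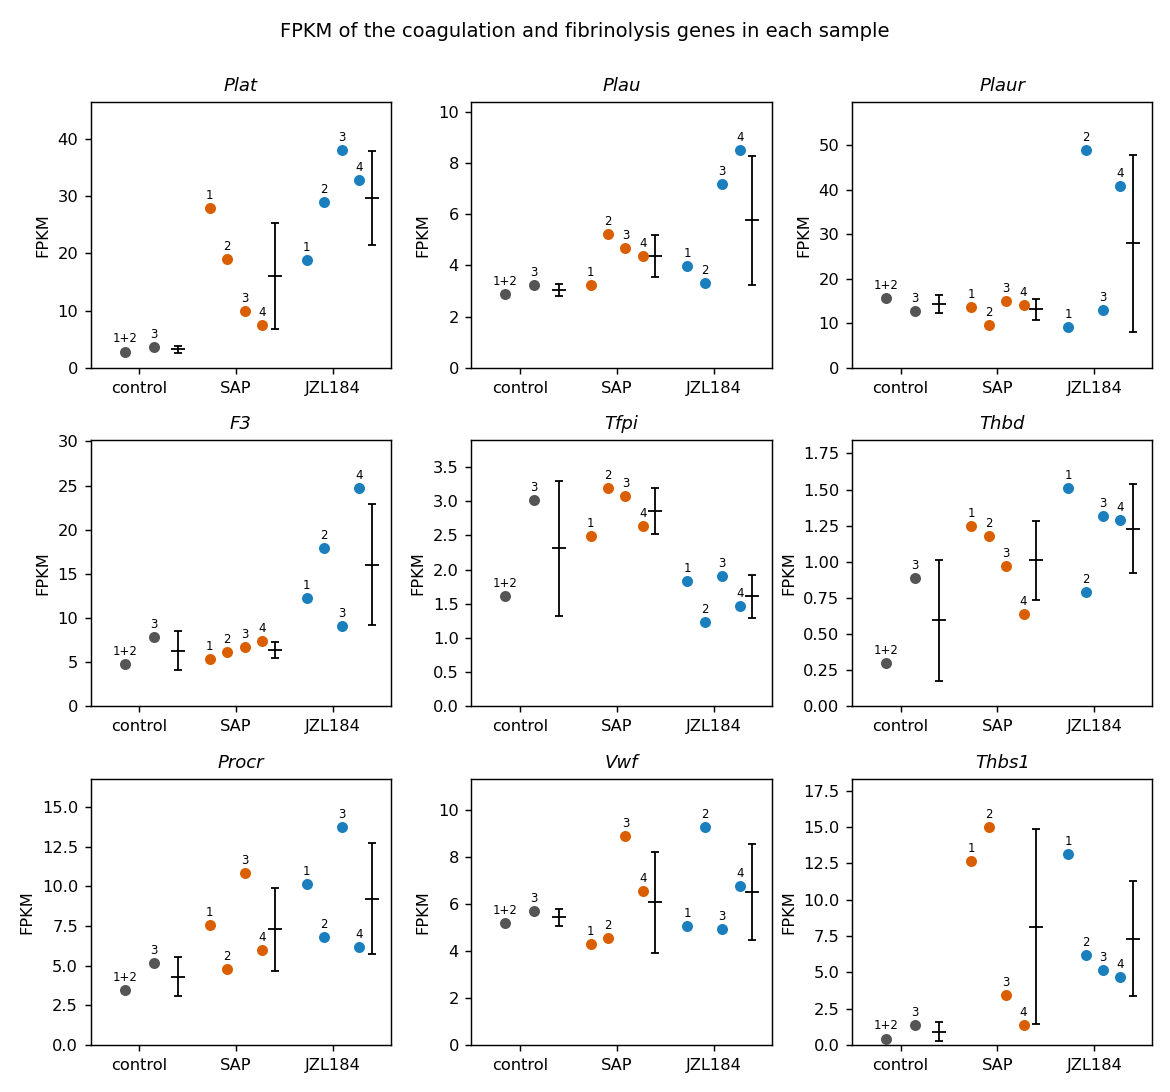
FPKM (vertical axis, linear from 0) of the 9 genes in the control, SAP and JZL184 groups; each point is 1 sample with its library number, control libraries 1 and 2 being averaged, and the black mark gives the group mean ± SD (n = 2, 4 and 4). *Plat* was at 2.85 to 3.72 in control libraries and at 7.52 to 38.1 in all SAP and JZL184 libraries, and *F3* was at 9.13 to 24.7 in the JZL184 group against 5.33 to 7.41 in the SAP group.

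Among the plasminogen activators and their receptor, *Plat* was the only gene called. Its FPKM was 2.85, 2.86 and 3.72 in control libraries 1 to 3. In SAP libraries 1 to 4 it was 27.9, 19.0, 10.0 and 7.52, and in JZL184 libraries 1 to 4 it was 18.8, 29.0, 38.1 and 32.8. Every library with pancreatitis lay above every control library, while the SAP and JZL184 groups overlapped. The mean was 3.29 ± 0.612 (SD, n = 2) in the control group, 16.1 ± 9.27 (n = 4) in the SAP group and 29.7 ± 8.16 (n = 4) in the JZL184 group. *Plat* rose in the JZL184 group against the control group by 3.15 ± 0.40 (SE) on the log2 scale, an 8.87-fold change (edgeR, adjusted p = 0.0156). That call was lost without JZL184 library 2 (log2 fold change 3.11, adjusted p = 0.0545), without control library 3 (adjusted p = 0.152) and without control libraries 1 and 2 (adjusted p = 0.350), where the log2 fold change stayed between 3.02 and 3.33. Without JZL184 library 3 it was 3.06 (adjusted p = 0.00605). Its SAP-to-control difference of 2.09 ± 0.54 on the log2 scale was not called by edgeR (adjusted p = 0.459) but was by DESeq2 (adjusted p = 0.0158), and it was 2.04 without SAP library 2. Between the JZL184 and SAP groups, the log2 fold change of *Plat* was 1.10 ± 0.39 (edgeR, adjusted p = 0.168; DESeq2, adjusted p = 0.0902). In a bulk tissue, more cells of a type and more RNA per cell cannot be told apart.

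The differences of *Plau* were smaller. It was at 2.75, 3.02 and 3.22 FPKM in control libraries 1 to 3, at 3.24, 5.21, 4.66 and 4.36 in SAP libraries 1 to 4, and at 3.99, 3.31, 7.19 and 8.52 in JZL184 libraries 1 to 4. On FPKM, the lowest SAP and the lowest JZL184 values, 3.24 and 3.31, lay just above the highest control value. Its log2 fold change was 0.35 ± 0.33 for SAP against control, 0.54 ± 0.35 for JZL184 against SAP and 0.87 ± 0.43 for JZL184 against control, none of them called (edgeR, adjusted p = 0.583, 0.368 and 0.234). The ratio of *Plat* to *Plau* in FPKM was 0.9896 to 1.16 in the control samples, 1.72 to 8.602 in the SAP libraries and 3.85 to 8.76 in the JZL184 libraries. In the control group both activators were measured at like levels, and in every pancreatitis library *Plat* was the more abundant.

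*Plaur* differed mainly between libraries of the JZL184 group. It stood at 15.8, 15.6 and 12.8 FPKM in control libraries 1 to 3 and at 13.7, 9.69, 15.0 and 14.1 in SAP libraries 1 to 4. In JZL184 libraries 1 to 4 it was 9.07, 49.0, 13.1 and 40.8. JZL184 libraries 2 and 4 lay above all others and libraries 1 and 3 within or below the range of the other groups. The log2 fold change for JZL184 against SAP was 1.31 ± 0.55 (edgeR, adjusted p = 0.213; DESeq2, adjusted p = 0.124), and it was 0.81 without JZL184 library 2. Neutrophils and macrophages are known to express *Plaur*. The summed FPKM of 8 neutrophil markers was 2.73 to 3.72 in the control samples and 10.3 to 86.0 in the SAP libraries. In JZL184 libraries 1 to 4 it was 68.6, 255, 16.5 and 37.4. JZL184 library 2 was highest for both. JZL184 library 4, with *Plaur* at 40.8 FPKM, had a lower neutrophil sum than JZL184 library 1, with *Plaur* at 9.07. That sum came mostly from *S100a8* (149 FPKM in JZL184 library 2) and *S100a9*, while *Mpo* stayed at or below 0.56 FPKM and *Elane* at or below 0.27 FPKM in every library. The summed FPKM of 8 macrophage markers was 351 to 400 in the control samples, 161 to 436 in the SAP libraries and 105 to 305 in the JZL184 libraries. For JZL184 against control edgeR called 2 of the 8, the scavenger receptor gene *Cd163* and the mannose receptor gene *Mrc1*, both higher. DESeq2 called both higher against control for SAP and for JZL184, and it called *Csf1r* lower for JZL184 against control and against SAP and *Adgre1* lower for JZL184 against SAP. edgeR called none of the neutrophil markers tested in any comparison. DESeq2 called 4 of them higher for SAP against control (*S100a8*, *S100a9*, *Csf3r* and *Cxcr2*), 3 higher for JZL184 against control (the same without *Cxcr2*) and none for JZL184 against SAP. The part of either cell type in the *Plaur* values was not tested.

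Tissue factor mRNA was higher in every JZL184 library than in any other. *F3* was at 5.06, 4.46 and 7.88 FPKM in control libraries 1 to 3, at 5.33, 6.12, 6.68 and 7.41 in SAP libraries 1 to 4, and at 12.3, 18.0, 9.13 and 24.7 in JZL184 libraries 1 to 4. The SAP values lay within the control range and the lowest JZL184 value, 9.13, was above the highest of both. The mean was 6.32 ± 2.21 (n = 2), 6.39 ± 0.880 (n = 4) and 16.03 ± 6.85 (n = 4) in the control, SAP and JZL184 groups. For JZL184 against SAP, the log2 fold change was 1.504 ± 0.37, a 2.84-fold difference. It missed the edgeR threshold (adjusted p = 0.0940) and passed that of DESeq2 (adjusted p = 0.00796) and of limma-voom with sample quality weights (adjusted p = 0.0401). The exact two-sided permutation test of FPKM gave p = 0.0286, the smallest that 4 against 4 libraries allow, and an adjusted p of 0.327 over the 27 tests of the 9 genes. Without SAP library 2 the log2 fold change was 1.45, and without JZL184 library 3 it was 1.72. For JZL184 against control it was 1.35 ± 0.48 (edgeR, adjusted p = 0.130; DESeq2, adjusted p = 0.0569; limma-voom, adjusted p = 0.0280), and for SAP against control -0.13 ± 0.34 (edgeR, adjusted p = 0.851).

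*Tfpi*, the inhibitor of tissue factor, lay lower with JZL184 than with SAP alone. Its FPKM was 1.57, 1.65 and 3.01 in control libraries 1 to 3, 2.49, 3.19, 3.08 and 2.64 in SAP libraries 1 to 4, and 1.83, 1.23, 1.90 and 1.47 in JZL184 libraries 1 to 4. The SAP and JZL184 groups did not overlap, and the control samples spanned both. The log2 fold change for JZL184 against SAP was -0.68 ± 0.24, under the fold threshold and not called (edgeR, adjusted p = 0.164; DESeq2, adjusted p = 0.0641), with p = 0.0286 in the exact permutation test and an adjusted p of 0.327. It stayed between -0.76 and -0.62 with any library left out, and the other alternative settings brought it to -0.50 at the weakest. *Tfpi* differed for SAP against control by 0.15 ± 0.33 and for JZL184 against control by -0.56 ± 0.31 on the log2 scale (edgeR, adjusted p = 0.813 and 0.292). The ratio of *F3* to *Tfpi* in FPKM was 2.96 and 2.62 in the control samples and 2.14, 1.92, 2.17 and 2.81 in SAP libraries 1 to 4. In JZL184 libraries 1 to 4 it was 6.73, 14.6, 4.81 and 16.8. The JZL184 ratios were all above those of the other groups and were not tested.

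Within each group, with control libraries 1 and 2 averaged, the order of *F3* followed that of the summed FPKM of the enterocyte markers. This relation was chosen after its values were seen and is given with no test. The summed FPKM of 6 enterocyte markers, of which the lipoprotein gene *Apoa1* was the most abundant, was 17428 and 19268 in the control samples (n = 2). *F3* was lower in the first. Taken apart, control libraries 1 and 2 had close sums of 17368.5 and 17487, with *F3* in the reverse order at 5.06 and 4.46 FPKM. In SAP libraries 1 to 4 the sum was 3043, 6604, 9970 and 17113, with *F3* in the same order. In JZL184 libraries 1 to 4 it was 23139, 26693, 553 and 27518, again with *F3* in the same order. The order held for the sum and not for every marker: of the 6, it was that of *F3* for 2 in the control samples (*Fabp2* and *Apoa4*), 3 in the SAP libraries (*Fabp2*, *Apoa1* and *Anpep*) and 1 in the JZL184 libraries (*Apoa1*). JZL184 libraries 1, 2 and 4 had the highest sums and the highest *F3*, and JZL184 library 3 had the lowest sum, with *F3* at 9.13 FPKM. The marker *Vil1* did not follow: it was at 193, 105, 64.0 and 164 FPKM in JZL184 libraries 1 to 4, against 261 to 496 in the control libraries. It was the only enterocyte marker that DESeq2 called, lower for JZL184 against control (DESeq2 log2 fold change -1.61, adjusted p = 0.0179), and edgeR called none. The part of enterocyte content in the *F3* values was not tested.

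**Figure D2:**
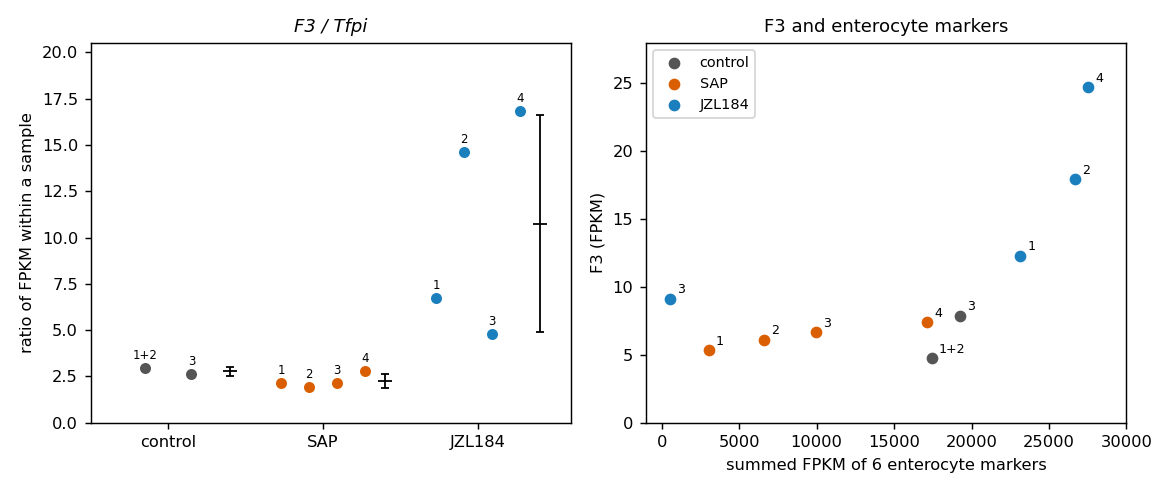
Left, ratio of *F3* to *Tfpi* in FPKM (linear axis) by group, each point 1 sample with its library number and the black mark the mean ± SD; the JZL184 libraries lie between 4.81 and 16.8 and the others between 1.92 and 2.96. Right, *F3* in FPKM against the summed FPKM of 6 enterocyte markers, 1 point per sample; within each group *F3* is higher where the sum is higher, and JZL184 library 3 lies far to the left with 9.13 FPKM.

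The genes of protein C activation, *Thbd* and *Procr*, had differences that neither edgeR nor DESeq2 called with n = 2 in the control group. *Thbd* was at 0.28, 0.32 and 0.89 FPKM in control libraries 1 to 3, at 1.25, 1.18, 0.97 and 0.64 in SAP libraries 1 to 4, and at 1.51, 0.79, 1.32 and 1.29 in JZL184 libraries 1 to 4. Control libraries 1 and 2 were lowest, and control library 3 lay above SAP library 4 and JZL184 library 2. Its log2 fold change was 1.03 ± 0.48 for JZL184 against control, and 1.90 or 0.46 with control library 3 or with control libraries 1 and 2 left out (edgeR, adjusted p = 0.214 with all libraries). It was 0.61 ± 0.48 for SAP against control and for JZL184 against SAP 0.45 ± 0.30 (edgeR, adjusted p = 0.533 and 0.384). *Procr* was at 3.56, 3.33 and 5.18 FPKM in control libraries 1 to 3, at 7.58, 4.76, 10.8 and 5.99 in SAP libraries 1 to 4, and at 10.2, 6.78, 13.8 and 6.18 in JZL184 libraries 1 to 4. All JZL184 libraries were above the control libraries, and SAP library 2 was below control library 3. The log2 fold change of *Procr* was 1.05 ± 0.38 for JZL184 against control, 0.61 ± 0.42 for SAP against control and 0.47 ± 0.35 for JZL184 against SAP (edgeR, adjusted p = 0.132, 0.497 and 0.434). With control libraries 1 and 2 as separate samples, edgeR called *Procr* and *F3* for JZL184 against control (log2 fold change 1.14 and 1.47, adjusted p = 0.0290 and 0.0300).

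Of the adhesive proteins, *Thbs1* was called in 1 comparison and *Vwf* in none. *Thbs1* was at 0.47, 0.41 and 1.40 FPKM in control libraries 1 to 3. In SAP libraries 1 to 4 it was 12.7, 15.0, 3.45 and 1.38, and in JZL184 libraries 1 to 4 it was 13.2, 6.19, 5.18 and 4.68. SAP libraries 1 and 2 were high, and SAP library 4 was level with control library 3. *Thbs1* rose in the JZL184 group against the control group by 2.97 ± 0.61 on the log2 scale, a 7.84-fold change (edgeR, adjusted p = 0.0489; DESeq2, adjusted p = 4.1e-06). That call lay close to the threshold: it was lost without JZL184 library 2 (adjusted p = 0.104), JZL184 library 4 (0.0798), control library 1 (0.0513), control library 3 (0.168) or control libraries 1 and 2 (0.529), and the log2 fold change ranged from 2.38 to 3.92. Without JZL184 library 3 the call held (log2 fold change 3.13, adjusted p = 0.0188). Offsets for gene length (adjusted p = 0.0505) and a fit of all 3 groups (adjusted p = 0.0902) also ended it. For SAP against control the log2 fold change was 2.95 ± 1.003 (edgeR, adjusted p = 0.459; DESeq2, adjusted p = 0.0320), and it was 2.52 without SAP library 2. Between JZL184 and SAP it was 0.06 ± 0.62 (edgeR, adjusted p = 0.957), and the mean FPKM differed in the other direction, 7.30 ± 3.95 against 8.13 ± 6.72.

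*Vwf* was at 5.40, 4.95 and 5.68 FPKM in control libraries 1 to 3, at 4.28, 4.54, 8.87 and 6.54 in SAP libraries 1 to 4, and at 5.04, 9.28, 4.92 and 6.76 in JZL184 libraries 1 to 4. The groups overlapped, and SAP library 3 and JZL184 library 2 were highest. Its log2 fold change was 0.01 ± 0.39, 0.27 ± 0.37 and 0.26 ± 0.38 for SAP against control, JZL184 against SAP and JZL184 against control (edgeR, adjusted p = 0.988, 0.677 and 0.689), and the sign of each turned when some libraries were left out. The summed FPKM of 10 endothelial markers was 36.0 to 38.1 in the control samples, 40.8 to 50.1 in the SAP libraries and 34.4 to 57.3 in the JZL184 libraries, and edgeR called none of them in any comparison, while DESeq2 called *Esam* higher and *Tie1* lower for JZL184 against control. That of 6 platelet markers was 9.27 to 29.0, 13.4 to 35.0 and 13.5 to 35.1, and that of 6 fibroblast markers 62.3 to 90.7, 62.7 to 147 and 31.0 to 61.1, in the same order. The platelet sum came mostly from *Pf4* (33.3 FPKM in SAP library 3), while *Itga2b*, the next most abundant, stayed at or below 2.87 FPKM. Of the platelet markers, DESeq2 called *Itga2b* alone, higher for JZL184 against SAP, and edgeR called none. edgeR called 1 of the 6 fibroblast markers, *Col1a1*, lower for JZL184 against control. DESeq2 called *Col1a1* and *Col1a2* lower for JZL184 against control and 5 of the 6 lower for JZL184 against SAP. The part of these cell types in the *Plat*, *Thbd*, *Procr*, *Vwf* and *Thbs1* values was not tested. Summed FPKM of hepatocyte markers stayed at or below 5.15 in every library. That of 5 exocrine pancreas markers was 10.8 to 11.7 in the control samples, 4.88 to 10.8 in the SAP libraries and 4.22 to 9.36 in the JZL184 libraries. It came mostly from *Cela1*, while *Prss1* stayed at or below 0.17 in every library.

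The order of the levels differed between libraries, also within the SAP and JZL184 groups. *Plaur* was the most abundant of the 9 genes in all 3 control libraries, SAP libraries 3 and 4 and JZL184 libraries 2 and 4. *Thbd* was the least abundant in all 11 libraries. *Plat* ranked behind *Plaur*, *Vwf*, *F3* and *Procr* in the control libraries and first in SAP libraries 1 and 2 and JZL184 libraries 1 and 3. FPKM normalizes for gene length, but it does not remove trends on gene length that differ between libraries. The ranks and the ratios of FPKM were not corrected for such trends.

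**Figure D3:**
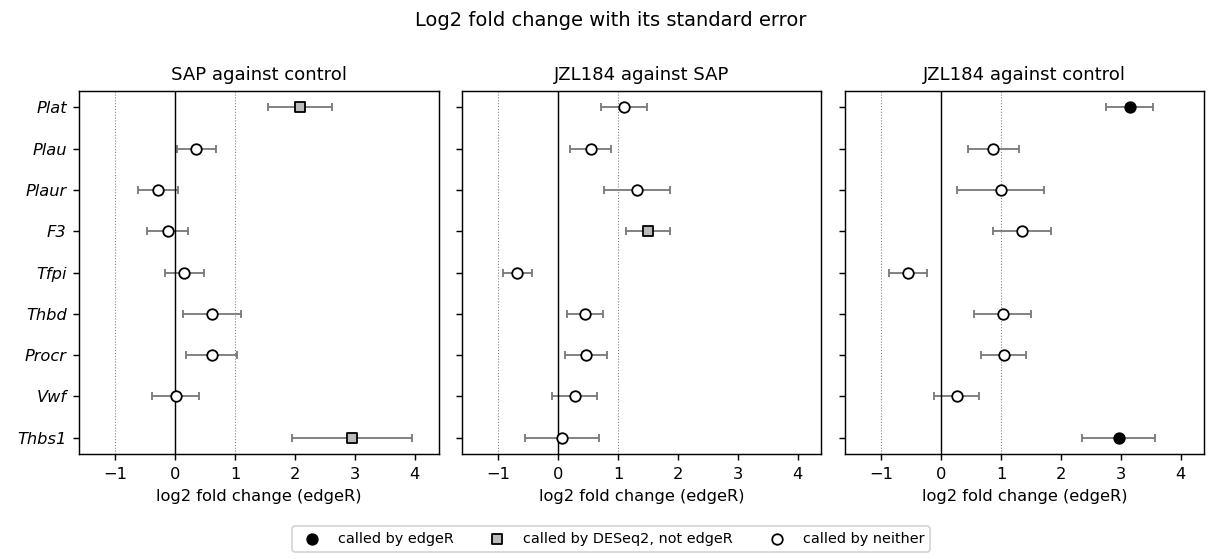
Log2 fold change of the 9 genes (horizontal axis, bars ± 1 SE, edgeR) in 3 comparisons, with dotted lines at a 2-fold change; black circles were called by edgeR, grey squares by DESeq2 and not edgeR, and white circles by neither. *Plat* and *Thbs1* are called for JZL184 against control (3.15 and 2.97), and *F3* by DESeq2 for JZL184 against SAP (1.504).

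Counted over the 9 genes for SAP against control, edgeR called 0, with 0% of all 16029 genes called, and limma-voom called 0, with 0.0873% of all genes. DESeq2 called 2 (*Plat* and *Thbs1*), with 1.14% of all genes. An unadjusted edgeR p below 0.05 was reached by the same 2 genes, against 9.09% of all genes. On normalized counts, 2 of the 9 genes (*Plat* and *Thbs1*) did not overlap between the groups and were higher in SAP, against 11.3% of all genes, and 0 were lower, against 11.9%. On FPKM, *Thbs1* overlapped, at 1.38 in SAP library 4 and 1.40 in control library 3. The median log2 fold change of the 9 genes was 0.35, beside 0.06 over all genes, with 7 genes higher and 2 lower.

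For JZL184 against SAP, edgeR called 0 of the 9 genes and 0% of all 15308 genes. DESeq2 called 1 (*F3*), against 6.98% of all genes, and limma-voom the same gene, against 4.57%. An unadjusted edgeR p below 0.05 was reached by 4 genes (*F3*, *Plat*, *Plaur* and *Tfpi*), against 21.3% of all genes. Without overlap, 1 gene (*F3*) was higher and 1 (*Tfpi*) lower in JZL184, against 6.23% and 5.59% of all genes. The median log2 fold change was 0.47, beside -0.05 over all genes, with 8 genes higher and 1 lower.

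For JZL184 against control, edgeR called 2 of the 9 genes (*Plat* and *Thbs1*), against 2.16% of all 15916 genes. DESeq2 called 2, against 11.7%, and limma-voom 3 with *F3* added, against 18.3%. An unadjusted edgeR p below 0.05 was reached by 4 genes, against 26.3% of all genes. On normalized counts 6 genes (*Plat*, *Thbs1*, *F3*, *Plau*, *Procr* and *Thbd*) lay higher without overlap, against 18.9% of all genes, and 0 lower, against 19.3%. On FPKM, *Thbd* overlapped. The median log2 fold change was 1.03, beside 0.08 over all genes, with 8 genes higher and *Tfpi* lower. With n = 2 in the control group, the exact permutation test cannot go below p = 0.0667, which *Plat* reached. The comparisons against control share the control samples, and both comparisons with SAP share the SAP libraries.

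Other genes of the cascade were taken from 5 lists by role, 51 genes in all, of which 47 were in the files and 36, 35 and 38 were tested for SAP against control, JZL184 against SAP and JZL184 against control. The log2 fold changes given for these genes were those of edgeR, also where the call was made by DESeq2. edgeR called 0 for SAP against control and 0 for JZL184 against SAP, with 0% of all genes in both. For JZL184 against control it called 2, both higher, against 2.16% of all genes. An unadjusted edgeR p below 0.05 was reached by 11, 15 and 15 genes in the 3 comparisons, against 9.09%, 21.3% and 26.3% of all genes. DESeq2 called 2 higher and 0 lower, 6 higher and 5 lower, and 9 higher and 4 lower. It called 1.14%, 6.98% and 11.7% of all genes in either direction. The median log2 fold change of the tested genes was 0.45, 0.045 and 0.40 in the 3 comparisons, beside 0.06, -0.05 and 0.08 over all genes.

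In the fibrinolysis list, *A2m* (alpha-2-macroglobulin, a broad protease inhibitor) rose for JZL184 against control by 2.45 ± 0.47 on the log2 scale (edgeR, adjusted p = 0.0427), from 0.207 ± 0.0460 FPKM (n = 2) to 1.14 ± 0.398 (n = 4), with 0.482 ± 0.116 (n = 4) in the SAP group. Its call was lost without JZL184 library 2 (adjusted p = 0.0940), JZL184 library 4 (0.0809), control library 3 (0.191) or control libraries 1 and 2 (0.529), and with gene length offsets (0.0523). DESeq2 also called *A2m* higher for JZL184 against SAP (log2 fold change 1.43). *Plg*, the precursor of plasmin, was at 3.14 ± 0.633, 3.84 ± 1.86 and 0.725 ± 0.495 FPKM in the control, SAP and JZL184 groups, and DESeq2 called it lower in JZL184 against both (log2 fold change -2.14 against control and -2.24 against SAP). DESeq2 also called *Vtn* (vitronectin, an adhesive plasma protein) lower for JZL184 against control (log2 fold change -1.99). *Serpinb2* (PAI-2) was listed at 0 in all control libraries and at 0.02 to 0.25 FPKM in the JZL184 libraries, and DESeq2 called it higher. *Lrp1*, a clearance receptor of many protease and inhibitor complexes, was at 2.12 ± 0.0601, 5.41 ± 2.02 and 2.87 ± 0.289 FPKM and was called by neither edgeR nor DESeq2 in any comparison (log2 fold change 1.15 ± 0.37 for SAP against control and -0.72 ± 0.27 for JZL184 against SAP).

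Of the platelet adhesion list, *Selp* (P-selectin, stored in endothelium and platelets with Vwf) rose for JZL184 against control by 4.86 ± 0.58 on the log2 scale (edgeR, adjusted p = 0.0144), from 0.055 ± 0.0212 FPKM to 1.54 ± 0.421, with 0.45 ± 0.369 in the SAP group. It was not called without JZL184 library 2 (adjusted p = 0.0540), control library 3 (0.140) or control libraries 1 and 2 (0.331). DESeq2 called it in all 3 comparisons. For JZL184 against SAP, DESeq2 called *Thbs2* higher (log2 fold change 1.38) and *Itgb3*, the beta-3 integrin of platelets, lower (-2.89). *Itgb3* was at 2.33 and 3.10 FPKM in SAP libraries 1 and 2 and at or below 0.73 in every other library. The platelet marker *Itga2b* went the other way for JZL184 against SAP and was called higher by DESeq2 (DESeq2 log2 fold change 1.65, adjusted p = 0.0031).

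Among the clotting factors, *Fga* (the fibrinogen alpha chain) was called higher by DESeq2 for SAP against control (log2 fold change 4.64 ± 1.06, DESeq2 adjusted p = 4.4e-06; edgeR adjusted p = 0.449) and for JZL184 against control (5.49 ± 1.65). It ranged from 3.50 to 39.7 FPKM in the SAP group and from 0.36 to 54.0 in the JZL184 group. The 0.36 was in JZL184 library 3, the library low in enterocyte markers. SAP libraries 1 and 2, with the lowest enterocyte sums of the SAP group, had *Fga* at 22.8 and 39.7 FPKM. SAP libraries 3 and 4 had 3.50 and 6.38, and the control samples 0.55 and 0.69. The part of enterocyte content in the *Fga* values was not tested. The *Fgb* and *Fgg* chains stayed at or below 0.41 FPKM in every library. DESeq2 called *F10* (factor X) higher for JZL184 against SAP and against control (log2 fold change 1.93 and 2.01), *F8* (factor VIII) higher against control (1.67), *F13a1*, the factor XIII subunit found in macrophages and platelets, lower against SAP (-2.89), and *Ggcx*, the vitamin K-dependent carboxylase, lower against SAP and control (-1.46 and -1.42). For SAP against control, *F8* and *F13a1* had log2 fold changes of 1.67 and 1.44 that edgeR and DESeq2 did not call.

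In the anticoagulant list, *Proc* (protein C, the substrate of the *Thbd* and *Procr* system) was called higher by DESeq2 for JZL184 against SAP and control (log2 fold change 2.22 and 1.89), at 0.662 ± 0.253 FPKM in the JZL184 group and 0.155 ± 0.052 in the SAP group. *Tfpi2* was at 0.9 to 1.86 FPKM in the JZL184 libraries, at 0.24 to 0.9 in the SAP libraries and at 0.11 in control library 3 alone among the control libraries, and DESeq2 called it higher in JZL184 against both. *Anxa5*, which covers procoagulant lipid, was called lower by DESeq2 in JZL184 against SAP and control (log2 fold change -1.29 and -1.41). *Proz* was called higher by DESeq2 for JZL184 against control (log2 fold change 3.55), with 0.01 to 0.84 FPKM in the JZL184 libraries. None of the 4 protease-activated receptor genes was called by edgeR or DESeq2, and *F2r*, the thrombin receptor PAR1, had the smallest p for SAP against control (log2 fold change 1.12 ± 0.48, edgeR adjusted p = 0.459).

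**Figure D4:**
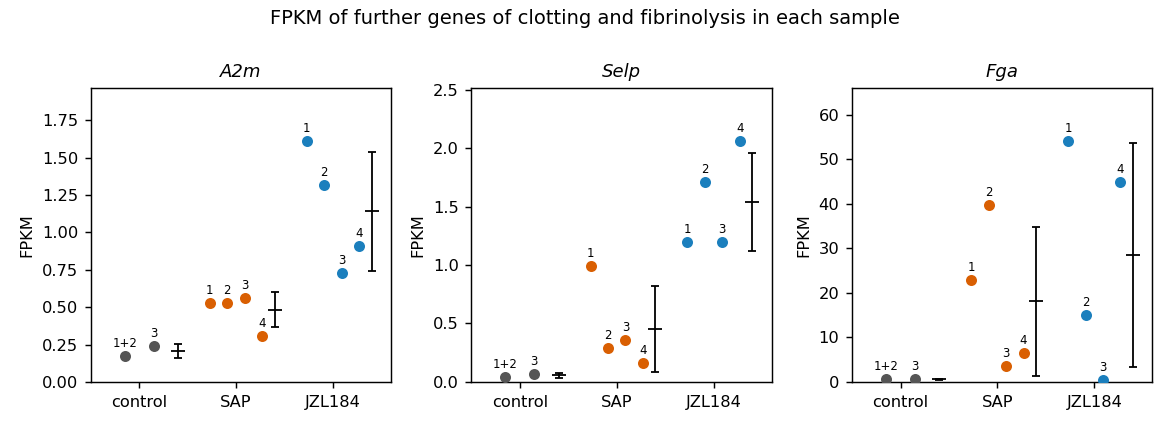
FPKM (vertical axes, linear from 0) of *A2m*, *Selp* and *Fga* by group, each point 1 sample with its library number and the black mark the group mean ± SD. *Selp* lies at 0.04 to 0.07 in the control samples, 0.16 to 0.99 in the SAP group and 1.20 to 2.06 in the JZL184 group, while *Fga* spreads over the whole axis in the JZL184 group.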

How the data were processed

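Reads were trimmed by the authors with FASTX-Toolkit and aligned to mRatBN7.2 with HISAT2. The counts of uniquely aligned reads per gene were deposited by the authors without normalization, and the FPKM deposited by the authors normalizes them for gene length and depth. Neither counting tool nor annotation is named in the sources read. Libraries held 26341299 to 33847135 reads on genes. Reads of control libraries 1 and 2 were summed and their FPKM averaged as 1 sample. Counts were compared with edgeR 4.0.16 in R 4.3.3 (TMM, filterByExpr with minimum count 10), and FPKM with two-sided exact permutation tests. DESeq2 1.42.0, the study's tool, and limma-voom (limma 3.58.1) were alternatives, as were the settings named in the closing section. The fits were tested on simulated data with known changes. Recovery of most changed genes was required only at a dispersion below that of these libraries, so the power of the fits here is not shown. Python 3.11.15 with pandas 2.3.3, numpy 2.4.6 and matplotlib 3.10.9 made the tables, permutation tests and plots.

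The members, the gene lists, the tests and the pooling of control libraries were chosen with earlier results of these data known. Named are all 9 members, and of the other cascade genes up to 6 per comparison with the smallest edgeR p among those averaging 100 counts or more, and any that edgeR or DESeq2 called. A gene of the cascade lists is not reported here. The replicate numbers of the labels did not pair the libraries. The lists of lymphatic endothelium and mesothelium were also summed, at 65.8 to 258 and 0.40 to 5.62 FPKM per library.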

Additional observations from a re-analysis of the deposited data

Results flagged for a closer look

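Of 54 groups of 4 libraries tested for a sample far from the others (27 genes in the SAP and JZL184 groups), 3 had one, where chance gives about 1 in 20 groups. *A2m* was at 0.31 FPKM in SAP library 4, with 0.53 to 0.56 in the other SAP libraries. *Proc* was at 1.04 FPKM in JZL184 library 4, with 0.50 to 0.56 in the others. *Thbs2* was at 1.5 FPKM in JZL184 library 3, with 0.46 to 0.57 in the others. None of the 9 coagulation and fibrinolysis genes had such a sample.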

How the results depend on the processing

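With n = 2 in the control group, calls against control rested on few samples. For JZL184 against control, 2 of the 9 genes were called, with a range of 0 to 2 when a library was left out (0 without JZL184 library 2, control library 3 or control libraries 1 and 2), 1 with gene length offsets or with all 3 groups fitted together, 4 with control libraries 1 and 2 as separate samples and 5 with DESeq2 on separate samples, an alternative chosen after seeing the data. For SAP against control, DESeq2 called 2, also on separate samples, and for JZL184 against SAP, DESeq2 and limma-voom each called 1. Over all genes, SAP against control gave 203 by DESeq2, 14 by limma-voom, 14 without a filter, 4 with all 3 groups, 33 with separate control libraries, 1469 by DESeq2 on separate libraries and 0 to 3 with a library left out. JZL184 against SAP gave 1283 by DESeq2, 699 by limma-voom, 27 without a filter, 207 with all 3 groups, 33 with gene length offsets and 0 to 655 (without JZL184 library 1) with a library left out. JZL184 against control gave 343 as reported, 1956 by DESeq2, 2906 by limma-voom, 929 without a filter, 2800 with separate control libraries, 3498 by DESeq2 on separate libraries and 0 (without control libraries 1 and 2) to 1867 (without JZL184 library 1) with a library left out. The replicate block, with control libraries 1 and 2 separate, gave 1 gene for SAP against control and 1488 for JZL184 against control, and 7 and 1164 with gene length offsets added. The numbers did not pair the libraries (correlation of same-numbered deviations -0.41 to 0.11). The median log2 fold change of the 9 genes for JZL184 against SAP was 0.53 with gene length offsets, 0.54 with the replicate block and offsets and 0.41 to 0.59 with a library left out, and for SAP against control it was 0.061 to 0.58 with a library left out.

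Signs that turned were of small log2 fold changes. For SAP against control, *Vwf* went to -0.021 with all 3 groups, -0.17 with the replicate block, -0.32 with gene length offsets and -0.91 with both, and ranged from -0.24 to 0.17 with a library left out. *Plaur* went to 0.093 with gene length offsets and 0.088 with the block added, *F3* to 0.018 and 0.10, and *Tfpi* to -0.15 and -0.18, and with a library left out *F3* ranged from -0.39 to 0.20 and *Tfpi* from -0.18 to 0.58, the bounds of both lying without control library 3 or control libraries 1 and 2. For JZL184 against SAP, *Thbs1* ranged from -0.29 to 0.52 and *Vwf* from -0.029 (without JZL184 library 2) to 0.52 with a library left out, and the *Thbs1* difference on log2(FPKM + 1) was 0.16 and on log2(FPKM + 0.1) 0.26. For JZL184 against control, *Vwf* went to -0.19 with the block and offsets and ranged from -0.037 (without JZL184 library 2) to 0.41. Of the values of the named other cascade genes under the alternatives, none changed sign. These genes were named for a small p or a call, which favors a stable sign, and the rest of the lists was not counted. For JZL184 against control 8 values lost and 57 gained a call, while 20 gained one for JZL184 against SAP and 9 for SAP against control. The cause was not tested for any of these.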
